A study of Mus musculus with 2 samples.

Results

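Imprinted genes are genes whose RNA comes mainly or wholly from the copy inherited from 1 parent. The 38 genes described here were taken as a fixed list of symbols and matched to the gene tables through the Ensembl identifier, without its version, and the GENCODE M21 mouse annotation. All 38 were found among the 43346 genes of each table. They were grouped by chromosomal cluster and by the allele each is known to express. The RNA came from midbrain tissue of healthy mouse embryos of the B6NCrl strain at 13.5 days, pooled from males and females. It was longer than 200 nt, and 10 ng went into each of 2 libraries, which the labels number as biological replicates 1 and 2 of 1 untreated group and give separate biosample entries. With 1 group there is no comparison between conditions, so values are given per library and as mean ± SD (n = 2). The SD covers only the spread between these libraries. No test is given, since an exact two-sided sign permutation of 2 libraries cannot go below p = 0.5.

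Imprints are set as DNA methylation in egg or sperm and kept through the genome-wide demethylation of the early embryo by the zinc finger protein ZFP57 and its partner TRIM28. Most imprinted genes lie in clusters, and each cluster has a control region that bears methylation on the maternal or the paternal copy and sets which genes of the cluster are expressed from which copy. Long noncoding RNAs are common in these clusters, and some silence their neighbours in cis. In brain, imprinted genes are known for roles in growth, neuronal differentiation and behaviour, and several of them change their imprint between neurons and other cells. B6NCrl is an inbred strain, so the 2 parental copies carry the same sequence and the reads hold no information on the allele. The allele classes below are background knowledge.

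Levels are given as TPM, a relative abundance scaled to transcript length and to the library total, so that different genes can be set side by side. Replicate 1 had 31436613 and replicate 2 had 40215359 expected reads on genes. A gene is called detected where both libraries give it 1 TPM or more. All 8 midbrain markers were detected, led by Otx2 at 104 TPM in replicate 1 and 117 in replicate 2 and Meis2 at 57.0 and 61.9. The 6 neuronal and 6 progenitor markers were all detected, as were the 8 erythroid, 6 microglial and 10 endothelial and pericyte markers, so the tissue held blood and vessel RNA besides neural RNA. In such bulk tissue, fewer cells of a type and less RNA per cell cannot be told apart.

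Of the 38 imprinted genes, 34 (89.5%) were detected, against 14878 of all 43346 genes (34.3%). Their levels spanned from 0.30 TPM for Ascl2 to 7010.2 for Nnat. Of them, 27 had a mean of 10 TPM or more, against 21.2% of all genes. A mean of 100 TPM or more was seen for 13, against 3.91% of all genes, and 1000 TPM or more for 2, against 0.201%. The 43346 genes include pseudogenes and small RNAs, some of which cannot receive a value here. The shares are thus not matched for type of gene. The median of the 38 was 41.5 TPM in replicate 1 and 36.95 in replicate 2, while the median over all detected genes was 16.6 and 16.3. Together the 38 genes made up 1.38% of the gene TPM in replicate 1 and 1.35% in replicate 2. Nnat alone accounted for 55.6% and 55.2% of that sum, and the 5 highest genes for 82.7% and 82.2%. In each library 10 of the 38 stood among the 1000 most abundant genes.

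**Figure D1:**
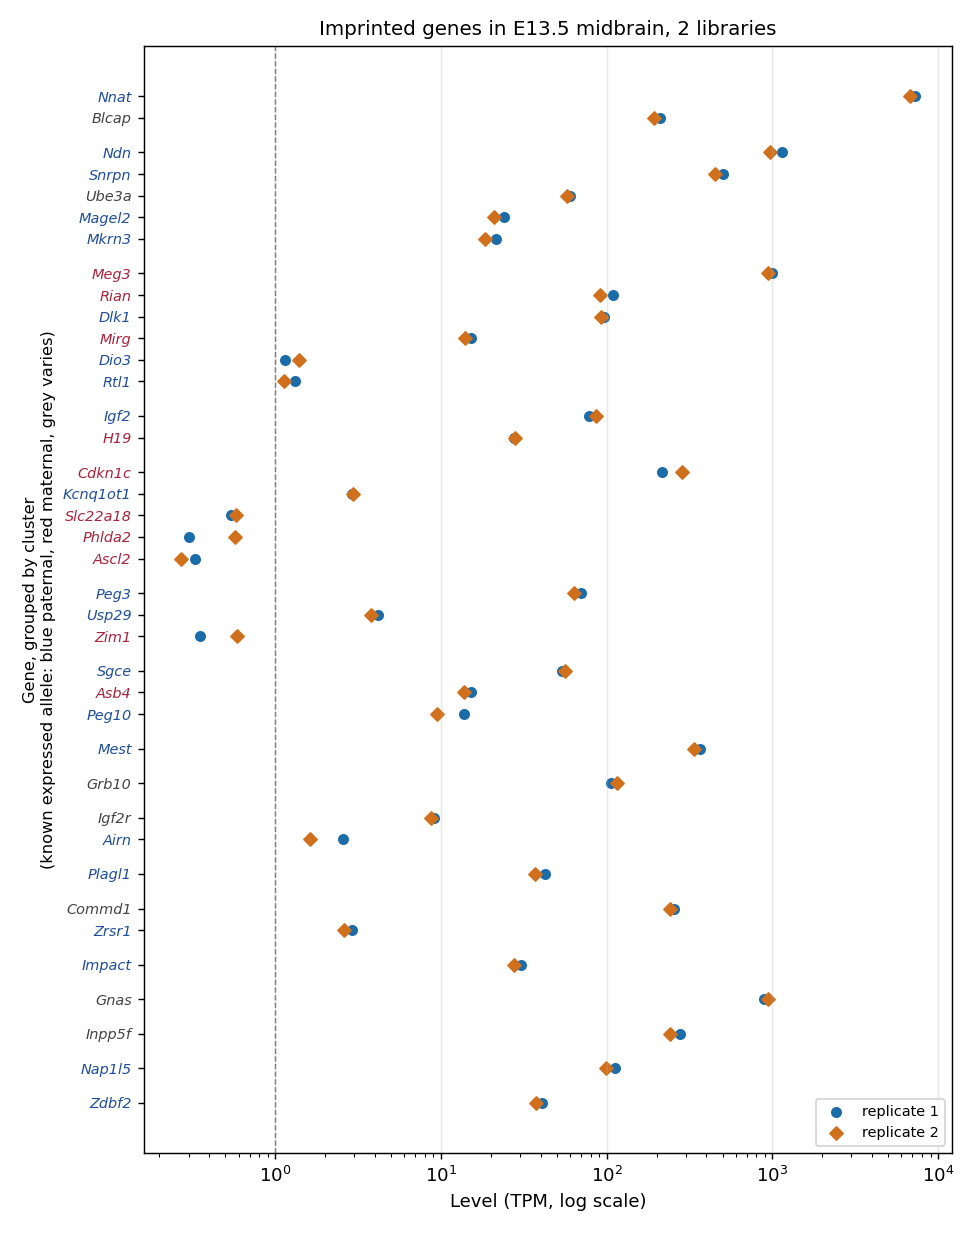
Level of each of the 38 imprinted genes in TPM on a log axis, grouped by cluster, with a circle for replicate 1 and a diamond for replicate 2. The dashed line marks a TPM of 1, and Slc22a18, Zim1, Phlda2 and Ascl2 lie below it in both libraries, while Nnat stands alone near 7010.2.

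Ordered by mean level, the highest genes were Nnat, Ndn, Meg3, Gnas, Snrpn, Mest, Inpp5f, Cdkn1c, Commd1 and Blcap. Of the 37 pairs of neighbours in the order of all 38, the values of the 2 libraries overlapped in 16 and were apart in 21. Meg3 overlapped with both Ndn above it and Gnas below it, while Ndn lay above Gnas in both libraries with no overlap. The values of Cdkn1c spanned those of Inpp5f and Commd1. Grb10 overlapped with Nap1l5, Nap1l5 with Rian and Rian with Dlk1, whereas Grb10 and Nap1l5 lay wholly above Dlk1. Zim1 overlapped with Slc22a18 and Phlda2, whereas Slc22a18 lay wholly above Ascl2. The 2 genes just above the detection limit were Rtl1, at 1.32 TPM in replicate 1 and 1.13 in replicate 2, and Dio3, at 1.14 and 1.40.

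The sequences that the transcript results below refer to are shown next. The first is the internal exon that separates the 2 main forms of the Nnat RNA, at chr2:157561213-157561293 on the plus strand of GRCm38, 81 bases of coding sequence from the GENCODE M21 transcripts. It has no capitals.
Nnat internal exon: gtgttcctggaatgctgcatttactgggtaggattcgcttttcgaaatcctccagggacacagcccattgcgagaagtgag
The next 2 are the 250 bases before the starts of Grb10 that carried most of its RNA and a small part of it, both on the minus strand of GRCm38.p6, from RefSeq, with each CG pair in capitals. The first, at chr11:12037421-12037670, holds 40 CG pairs, and the second, at chr11:12027972-12028221, holds 8.
Grb10 upstream start: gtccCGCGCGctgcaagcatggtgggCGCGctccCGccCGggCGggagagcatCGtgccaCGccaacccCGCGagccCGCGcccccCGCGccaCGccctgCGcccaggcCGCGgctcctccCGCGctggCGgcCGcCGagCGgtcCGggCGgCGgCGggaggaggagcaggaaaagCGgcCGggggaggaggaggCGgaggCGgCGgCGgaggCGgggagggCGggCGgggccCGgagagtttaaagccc
Grb10 downstream start: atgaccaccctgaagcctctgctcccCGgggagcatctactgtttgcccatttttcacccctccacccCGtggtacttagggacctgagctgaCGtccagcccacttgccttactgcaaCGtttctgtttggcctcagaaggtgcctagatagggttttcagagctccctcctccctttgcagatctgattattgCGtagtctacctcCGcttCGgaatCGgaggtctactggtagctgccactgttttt
The 146 bases between the annotated, outward-facing starts of Peg3 and Usp29, at chr7:6730432-6730577, are given on the minus strand, in the direction of Peg3, with 5 CG pairs in capitals.
Peg3 to Usp29: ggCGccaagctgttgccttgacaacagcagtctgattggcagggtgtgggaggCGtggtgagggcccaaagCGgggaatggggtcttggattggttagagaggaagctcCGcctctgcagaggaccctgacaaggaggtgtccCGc
The last 2 are the 250 bases before the main starts of Meg3, at chr12:109540746-109540995, and Mest, at chr6:30737800-30738049, both on the plus strand and from RefSeq. The capitals mark TGCCGC on either strand, which reads GCGGCA on the other and is the core that ZFP57 binds when it is methylated.
Meg3 main start: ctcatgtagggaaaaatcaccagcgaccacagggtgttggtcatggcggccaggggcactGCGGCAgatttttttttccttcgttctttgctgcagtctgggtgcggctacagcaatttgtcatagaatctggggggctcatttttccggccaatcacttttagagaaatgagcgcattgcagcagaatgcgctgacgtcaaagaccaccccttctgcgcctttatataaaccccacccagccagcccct
Mest main start: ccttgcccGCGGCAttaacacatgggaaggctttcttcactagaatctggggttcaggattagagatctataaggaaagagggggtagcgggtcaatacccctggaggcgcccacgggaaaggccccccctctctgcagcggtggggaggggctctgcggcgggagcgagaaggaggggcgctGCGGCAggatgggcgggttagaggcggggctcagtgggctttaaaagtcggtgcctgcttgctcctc

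RefSeq windows of 250 bases upstream of a start were at hand for 32 of the 38 genes, 48 windows in all. No window was at hand for Rtl1, H19, Cdkn1c, Peg10, Sgce and Impact. TGCCGC, searched on both strands, was in 7 of the 48 windows (14.6%), against 2850 of 32851 windows of all genes (8.68%). The 7 windows belonged to 6 genes, Meg3, Mest, Nap1l5, Plagl1, Zdbf2 and Zim1. For Zdbf2 the window with the motif lies before a far upstream start at 63200358. The Zdbf2 window before the start at 63273269 had no match, and the counted transcripts start from 63273265 on. Windows of 1 gene can overlap, as those of Mest do, so they are not independent. The median number of CG pairs was 10 in the windows of the imprinted genes and 6 over all windows. A match says only that the letters are there, and methylation was not measured in these libraries.

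Nnat (ENSMUSG00000067786) encodes neuronatin, a small membrane proteolipid of the endoplasmic reticulum that is abundant in young neurons. It lies at chr2:157560078-157562522, inside an intron of Blcap, which is on the other strand. Nnat, expressed from the paternal copy, had 7260.1 TPM in replicate 1 and 6760.4 in replicate 2 (7010.2 ± 353), and it ranked 6 among all genes in both. Blcap, whose allele depends on the tissue and the isoform, had 209.8 and 192 TPM. The log2 ratio of Nnat to its host gene was 5.12 ± 0.02 (SD, n = 2), a 34.9-fold difference, on the scale of log2(TPM + 0.1) that is used for all pairs of genes here. No exon bases are shared between them.

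The Nnat RNA was divided between 2 main forms. Nnat-202 (ENSMUST00000109526), which has the internal exon printed above and codes for 81 residues, took 52.9% of the gene's TPM in replicate 1 and 51.9% in replicate 2. Nnat-205 (ENSMUST00000153739), which skips it and codes for 54 residues, took 38.6% and 39.5%. The exon thus adds 27 residues without a change of frame. Of these 2 forms alone, 57.9% of the RNA held the exon in replicate 1 and 56.8% in replicate 2. A form with a retained intron, Nnat-204, took 5.23% and 5.33%. The longer form was the more abundant in both libraries, by 1.37-fold and 1.32-fold.

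The Prader-Willi and Angelman region on chromosome 7 had 5 genes on the list, and all 5 were detected. Ndn, which encodes a MAGE family protein that promotes neuronal differentiation, was the highest at 1143 TPM in replicate 1 and 969 in replicate 2 (1056 ± 123). Snrpn, which encodes the SmN protein of the spliceosome, had 505 and 447 TPM. Ndn was 2.21-fold above Snrpn, with a log2 ratio of 1.15 ± 0.05. The other 2 genes of the paternal copy were far lower. Magel2, a MAGE family partner of ubiquitin ligases, had 24.1 and 20.9 TPM, and Mkrn3, a RING finger protein known as a brake on puberty, had 21.6 and 18.4. Ndn and Magel2, which are neighbours on the same strand, differed by 46.8-fold (log2 5.55 ± 0.02).

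Ube3a, the ubiquitin ligase that is lost in Angelman syndrome, is expressed from both copies in most cells and from the maternal copy in neurons. It had 59.7 TPM in replicate 1 and 57.6 in replicate 2, with a log2 ratio of Snrpn to Ube3a of 3.02 ± 0.09. The paternal antisense transcript that silences Ube3a in neurons is part of Snhg14, which had 124 and 110 TPM. Exons of Ube3a and Snhg14 in GENCODE M21 share 1803 bases on opposite strands. The 1 Ube3a transcript counted here ends at 59306727, before Snhg14 begins at 59307924, and both genes had whole counts. The sources used here do not say whether the strand of a read was used in counting. In replicate 1 the expected reads of Kcnq1ot1 (4914.46) and Kcnq1 (39.54), on opposite strands, have fractions that complete a whole number. Reads at that locus were thus divided across the strands. Where counted transcripts do share bases across strands, the reads there are uncertain. Snrpn shares 216 exon bases with Snurf, which is encoded on the same RNA, and 589 with Gm38393, both on its own strand. All 3 have counts that are not whole, so their reads are estimates. The start of Snrpn at position 60005111 carried 87.6% of its TPM in replicate 1 and 87.7% in replicate 2, and the far upstream start at 60140219 carried 12.4% and 12.3%.

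In the Dlk1-Dio3 region of chromosome 12, the 3 noncoding RNAs of the maternal copy stood in descending order of level along the chromosome. Meg3 (ENSMUSG00000021268, chr12:109541001-109571726) had 999 TPM in replicate 1 and 938 in replicate 2 (968 ± 43.1). Rian, the host of a series of C/D box small nucleolar RNAs, had 109 and 91.4 TPM. Mirg, the host of a large group of microRNAs, had 15.2 and 13.9. The log2 ratio was 3.28 ± 0.12 from Meg3 to Rian and 2.77 ± 0.09 from Rian to Mirg. In the 2 libraries, each step down was larger than the spread between them.

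The 3 protein-coding genes of the same region, which are expressed from the paternal copy, also differed widely. Dlk1, a membrane protein related to the Notch ligands, had 96.7 TPM in replicate 1 and 91.8 in replicate 2. Rtl1, a gene derived from a retrotransposon and needed in placenta and muscle, had 1.32 and 1.13. Dio3, the deiodinase that inactivates thyroid hormone, had 1.14 and 1.40. The values of Rtl1 and Dio3 overlapped. Rtl1 has microRNAs on its other strand that come from the maternal copy, and its count was among the 8 that were not whole and thus contain reads divided between genes.

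Reads and TPM gave different pictures of the Meg3 transcripts. Meg3-205 (ENSMUST00000129245), 1498 nt long, led by TPM with 41.5% in replicate 1 and 39.1% in replicate 2. The transcript group that starts at 109545398 had 4.99% and 4.97% of the TPM but 36.9% and 37.2% of the reads. The group that starts at 109541001, just after the window printed above, had 62.6% and 60.5% of the TPM and 49.4% and 48.7% of the reads. TPM divides by length, so a long transcript with many reads can have a small share.

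On distal chromosome 7, Igf2, the fetal growth factor of the paternal copy, had 77.7 TPM in replicate 1 and 86.1 in replicate 2 (81.9 ± 5.89). H19, the noncoding RNA of the maternal copy that shares its enhancers, had 27.4 and 28.1 TPM. H19 was lower than Igf2 in both libraries, with a log2 ratio of -1.55 ± 0.08. Igf2-203 (ENSMUST00000105935), 650 nt long, took 43.75% and 44.22% of the Igf2 TPM but 19.3% and 20.3% of its reads. The size of the ratio thus depends on the length of a short annotated transcript. In brain, Igf2 is known to come largely from the choroid plexus and the meninges, where both copies are expressed. The 7 choroid plexus markers, led by Ttr at 61.8 and 117 TPM and Enpp2 at 27.0 and 30.1, summed to 102 TPM in replicate 1 and 164 in replicate 2. The 10 markers of meninges and mesenchyme, led by Col3a1 at 118 and 148 TPM and Col1a2 at 44.7 and 56.3, summed to 283 and 347. Of these lists, 6 of 7 choroid plexus and 9 of 10 meningeal and mesenchymal markers were detected, and no member was at 0. Among members with enough reads, 7 of 7 and 9 of 9 were higher in replicate 2. Most of the other marker lists also leaned to replicate 2, as given with the ratios between the libraries. Igf2 was 1.10-fold higher in replicate 2, with a 95% counting interval of 1.04 to 1.17, and the part of these cells in that difference was not tested.

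The next cluster on the same chromosome held 1 abundant gene and 4 low ones. Cdkn1c (ENSMUSG00000037664, chr7:143458339-143461050) encodes p57, an inhibitor of cyclin-dependent kinases that acts as progenitors leave the cell cycle. It had 217 TPM in replicate 1 and 283 in replicate 2 (250.2 ± 47.0). The other 3 genes of the maternal copy were not detected. Phlda2, which limits placental growth, had 0.30 and 0.57 TPM, Slc22a18, a transporter gene, had 0.54 and 0.58, and Ascl2, a transcription factor of the trophoblast, had 0.33 and 0.27. They had mean counts of 7 to 15.5 reads, and at such depth their transcript shares and library differences carry little precision. Kcnq1ot1, the noncoding RNA of the paternal copy that silences this cluster in cis, had 2.91 and 2.94 TPM. That level rests on 4914 and 6637 expected reads spread over an annotated length of 84395 nt. Kcnq1, on the other strand, shares 121 exon bases with it and had 39.54 and 54.18 expected reads. Neither gene had whole counts, so the counts contain reads divided between genes. The log2 ratio of Cdkn1c to Kcnq1ot1 was 6.36 ± 0.26.

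At the proximal end of chromosome 7, Peg3, a large zinc finger protein, had 69.9 TPM in replicate 1 and 63.2 in replicate 2. Usp29, of the ubiquitin-specific protease family, had 4.17 and 3.77. Both are expressed from the paternal copy and their annotated starts face away from each other across the 146 bases printed above. Peg3 was 16.4-fold above Usp29 in both libraries (log2 4.03 ± 0.00). The deposited tables hold 1 Usp29 transcript of 2610 nt, so the upstream exons in the newer annotation were not counted. Nearly all of the Peg3 RNA, 99.99% and 100%, was assigned to transcripts from the start at 6730431. Zim1, a zinc finger gene of the maternal copy, was not detected at 0.35 and 0.59 TPM, from a mean of 37 reads.

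On proximal chromosome 6, Sgce, the epsilon-sarcoglycan gene, had 53.8 TPM in replicate 1 and 56.2 in replicate 2. Peg10, which derives from a retrotransposon and is needed for placental development, had 13.7 and 9.48. Both come from the paternal copy, and Peg10 was lower than Sgce in both libraries (log2 ratio -2.26 ± 0.42). Asb4, a maternally expressed gene of the ankyrin repeat and SOCS box family, had 15.2 and 13.8 TPM, and its ratio to Peg10 varied more than most pairs here (log2 Peg10 over Asb4 -0.34 ± 0.27). The leading Peg10 transcript by TPM, ENSMUST00000175823, with 41.3% and 41.1%, is not in GENCODE M21, so its start is not given. Transcripts from the start at 4747306 carried 85.4% and 85.7% of the Peg10 reads.

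**Figure D2:**
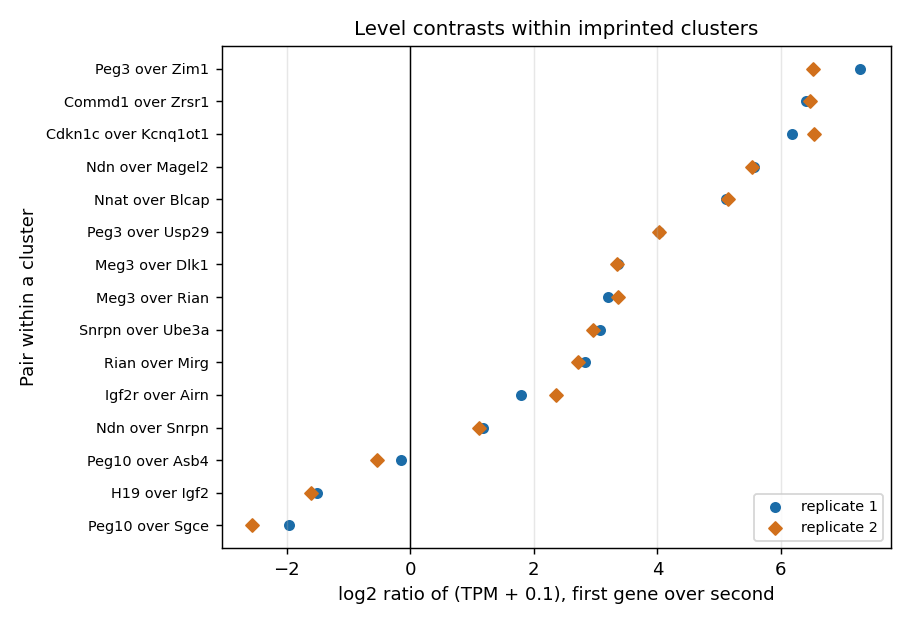
Log2 ratio of (TPM + 0.1) for the 15 pairs of genes within a cluster, first gene over second, with a circle for replicate 1 and a diamond for replicate 2. Peg10 over Sgce, H19 over Igf2 and Peg10 over Asb4 lie below 0 in both libraries, and the other pairs lie above 0. By mean, Peg3 over Zim1 is the farthest at 6.90, though Zim1 was not detected. In replicate 2, Cdkn1c over Kcnq1ot1 is farther, at 6.54 against 6.52.

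Mest, also on chromosome 6, belongs to the alpha/beta hydrolase family and is expressed from the paternal copy. It had 364 TPM in replicate 1 and 336 in replicate 2. The start at 30738050, directly after the printed Mest window, carried 87.4% and 89.0% of its TPM and 96.4% and 96.8% of its reads. The most upstream start, at 30723547, was listed at 0 in both libraries. Exons of Mest and Copg2, on the other strand, share 912 bases, and neither gene had whole counts.

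Grb10 on chromosome 11 encodes an adaptor that dampens insulin and IGF receptor signalling. It is known to be expressed from the maternal copy in most tissues and from the paternal copy, through downstream promoters, in neurons. Its level was 107 TPM in replicate 1 and 116 in replicate 2 (111 ± 6.14). Grb10-201 (ENSMUST00000093321), whose start at 12037401 follows the printed window with 40 CG pairs, had 87.4% and 87.0% of the TPM and 94.2% and 94.0% of the reads. The start at 12027971, after the window with 8 CG pairs, had 4.94% and 5.05% of the TPM. ENSMUST00000143915, an annotated fragment of 430 nt that starts at 12026732, had 5.49% and 6.76% of the TPM and 0.395% and 0.487% of the reads. The start at 12026324 had 1.17% and 0.85%. The upstream start thus led in both libraries, and since estimates on short fragments are uncertain, the small shares are descriptions of the deposited table.

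Gnas on chromosome 2, at chr2:174284320-174346744, encodes the stimulatory G protein alpha subunit together with alternative products from upstream promoters that are expressed from the maternal or the paternal copy. The gene had 885 TPM in replicate 1 and 940.5 in replicate 2 (913 ± 39.1). The start group at 174330006, that of the alpha subunit, carried 94.0% and 95.7% of the TPM, most of it in Gnas-208 (ENSMUST00000109087), with 86.7% and 88.7%. The groups that start upstream at 174284320, 174285256 and 174297859 each had under 1% of the TPM. They had 0.99%, 0.56% and 0.15% in replicate 1 and 0.84%, 0.33% and 0.19% in replicate 2. The group at 174327570 had 3.32% and 2.21%. The alpha subunit itself is known to be expressed from both copies in most tissues, so the class of the gene as a whole varies. Exons of Gnas share 988 bases with the antisense RNA Nespas and 1469 bases with Gm20721, both on the other strand.

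Inpp5f on chromosome 7 encodes an inositol phosphatase, and a shorter RNA that starts inside the gene is the imprinted product, from the paternal copy. Inpp5f had 275.7 TPM in replicate 1 and 239.6 in replicate 2 (258 ± 25.6). The full-length start at 128611328 carried 2.76% and 3.08% of the TPM. The internal start at 128687546 carried 88.7% and 88.3%, and that at 128688489 carried 8.34% and 8.40%. In both libraries, most of the RNA counted for Inpp5f was thus assigned to the internal starts.

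**Figure D3:**
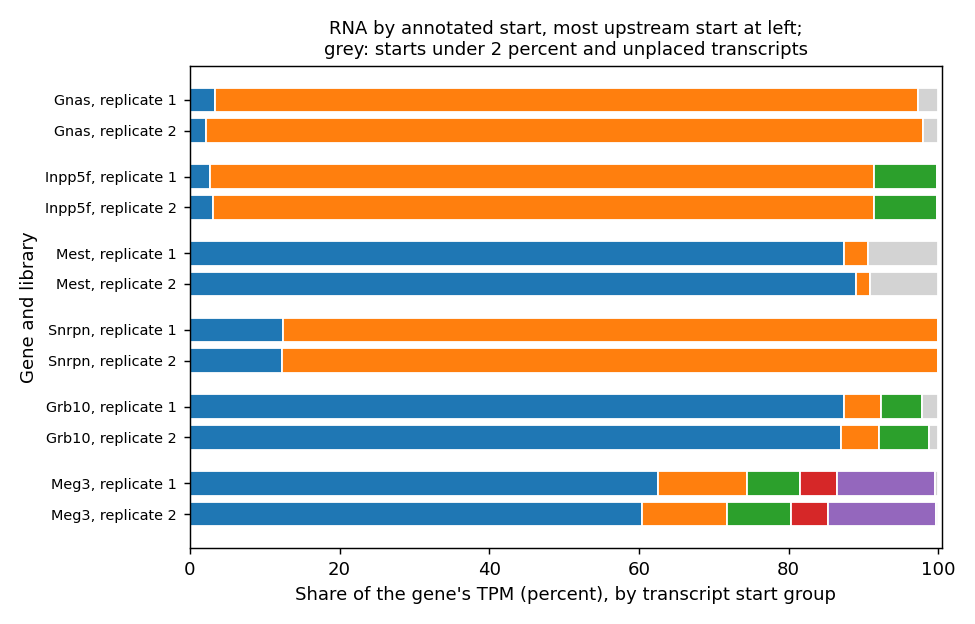
Share of each gene's TPM, in percent, assigned to transcripts that start at the same annotated place, as stacked bars for each library, with the most upstream start at the left and starts under 2% and unplaced transcripts in grey. Gnas, Inpp5f, Mest, Snrpn and Grb10 each have 1 start with over 85% in both libraries, while Meg3 is divided among 5 starts of at least 2%.

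Igf2r, which clears Igf2 from the cell surface, is expressed from the maternal copy in most tissues and from both in neurons. It had 9.06 TPM in replicate 1 and 8.75 in replicate 2. Airn, the noncoding RNA that silences it in cis, had 2.55 and 1.63 TPM from a mean of 39.5 reads, and the log2 ratio of Igf2r to Airn was 2.07 ± 0.40. The annotated Airn transcripts are spliced forms, with a mean length of 901 and 971 nt in the 2 libraries, and the unspliced RNA that spans the locus is not counted in them.

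Commd1, a protein of copper and NF-kappaB regulation, had 255 TPM in replicate 1 and 240.2 in replicate 2. Zrsr1, a splicing factor gene that lies inside an intron of Commd1 on the other strand and is expressed from the paternal copy, had 2.92 and 2.61. Their log2 ratio was 6.44 ± 0.05, and 412 bases of annotated exon are shared. Both had counts that were not whole. Commd1-203, of 469 nt, took 42.2% and 38.1% of the Commd1 TPM, and Commd1-202, of 473 nt, took 34.0% and 35.8%. The Zrsr1 transcript has 3282 nt. In expected reads, Commd1 had 2371 and 2999 and Zrsr1 had 186 and 222, so the size of the ratio depends on short annotated transcripts.

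The other paternally expressed genes, each the only gene of its cluster on the list, were all detected. Nap1l5, a member of the nucleosome assembly protein family, had 112 TPM in replicate 1 and 98.5 in replicate 2. Plagl1, a zinc finger transcription factor that restrains growth, had 42.6 and 36.7, and Zdbf2, a zinc finger protein of the brain, had 40.4 and 37.2. Impact, a regulator of translation that is abundant in neurons, had 30.6 and 27.5. For Zdbf2, 75.1% and 78.3% of the TPM was assigned to a transcript of 611 nt (ENSMUST00000126932), while the 12629 nt transcript (ENSMUST00000114132) had 89.0% and 87.1% of the reads. Its gene level thus rests on the length of a short annotated transcript.

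By known allele, all 21 genes of the paternal copy were detected, as were all 7 whose allele varies with tissue or isoform, and 6 of the 10 of the maternal copy. The median level was 40.4 TPM in replicate 1 and 36.7 in replicate 2 for the paternal class, 15.2 and 13.8 for the maternal class, and 209.8 and 192 for the varying class. Within each class, levels ranged over orders of magnitude, from 1.23 TPM for Rtl1 to 7010.2 for Nnat among paternal genes and from 0.30 for Ascl2 to 968 for Meg3 among maternal genes. Nnat set the paternal sum. Without it, the other 20 paternal genes summed to 2610.1 and 2312 TPM, against 1384 and 1371 for the 10 maternal genes. Per gene the order was the opposite, with a mean of 130.5 and 115.6 TPM for these 20 and 138 and 137 for the maternal genes. Meg3 alone gave 999 and 938 TPM of the maternal sum. That order thus rests on leaving out the highest gene of the paternal class only. The list was not drawn to represent either class.

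Of the 27 imprinted genes with more than 1 annotated transcript, 23 had the same leading transcript by TPM in both libraries. In the 4 others the leader differed. In replicate 1 and replicate 2 respectively, the leader was ENSMUST00000182300 and ENSMUST00000181496 for Mirg, ENSMUST00000173014 and ENSMUST00000097228 for Dio3, ENSMUST00000146983 and ENSMUST00000052348 for Slc22a18, and ENSMUST00000121862 and ENSMUST00000009392 for Ascl2. Their mean counts were 379.5 reads for Mirg, 51.5 for Dio3, 15.5 for Slc22a18 and 10.5 for Ascl2. Airn and Zim1, with 39.5 and 37 reads, kept their leader.

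Between the libraries, the imprinted genes were close. Ratios were taken from rounded expected counts scaled by edgeR's TMM for the 33 genes whose mean count reached 50, and the other 5, Phlda2, Slc22a18, Ascl2, Zim1 and Airn, were left out. None of the 33 differed by 2-fold or more, against 0.738% of all 14366 genes with such counts, and none by 1.5-fold or more, against 3.36%. At these background shares, 0 of 33 is not a result about the imprinted genes. The median absolute log2 ratio was 0.12 for the 33 and 0.10 for all genes. Exact Clopper-Pearson intervals, which cover counting error only, left out a ratio of 1 for 22 of 33 (66.7%), against 39.3% of all genes. The 33 genes had more reads, with a median mean count of 2971 against 1041, which narrows such intervals.

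The largest differences were those of Cdkn1c and Peg10. Cdkn1c was 1.35-fold higher in replicate 2 (95% counting interval 1.31 to 1.39), and Peg10 was 1.38-fold higher in replicate 1 (1.261 to 1.501). Zdbf2 was 1.18-fold, and Ndn and Rian 1.14-fold, higher in replicate 1, while Grb10 and Gnas were 1.11-fold higher in replicate 2. Of the 33, 23 were lower and 10 (30.3%) higher in replicate 2, against 51.0% of all genes higher. The median log2 ratio was -0.09 for the 33 and 0.00 over all genes. The direction of Ube3a, Mirg and Igf2r changed with the scaling, whereas 22 genes were lower and 8 were higher in replicate 2 under each of 4 scalings. None of the 6 neuronal markers, led by Tubb3 at 1679 and 1558 TPM and Stmn2 at 756 and 696, was higher in replicate 2, and their median log2 ratio was -0.06. Most other marker lists leaned to replicate 2. There, besides the choroid plexus and meningeal markers given beside Igf2, 7 of 8 midbrain, 9 of 10 endothelial and pericyte, 7 of 8 erythroid and 5 of 6 microglial markers were higher, with list medians of 0.22, 0.16, 0.09 and 0.21 on the log2 scale. Of the 6 progenitor markers, 3 were higher. The part of any of these cell types in the ratios of the imprinted genes was not tested.

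**Figure D4:**
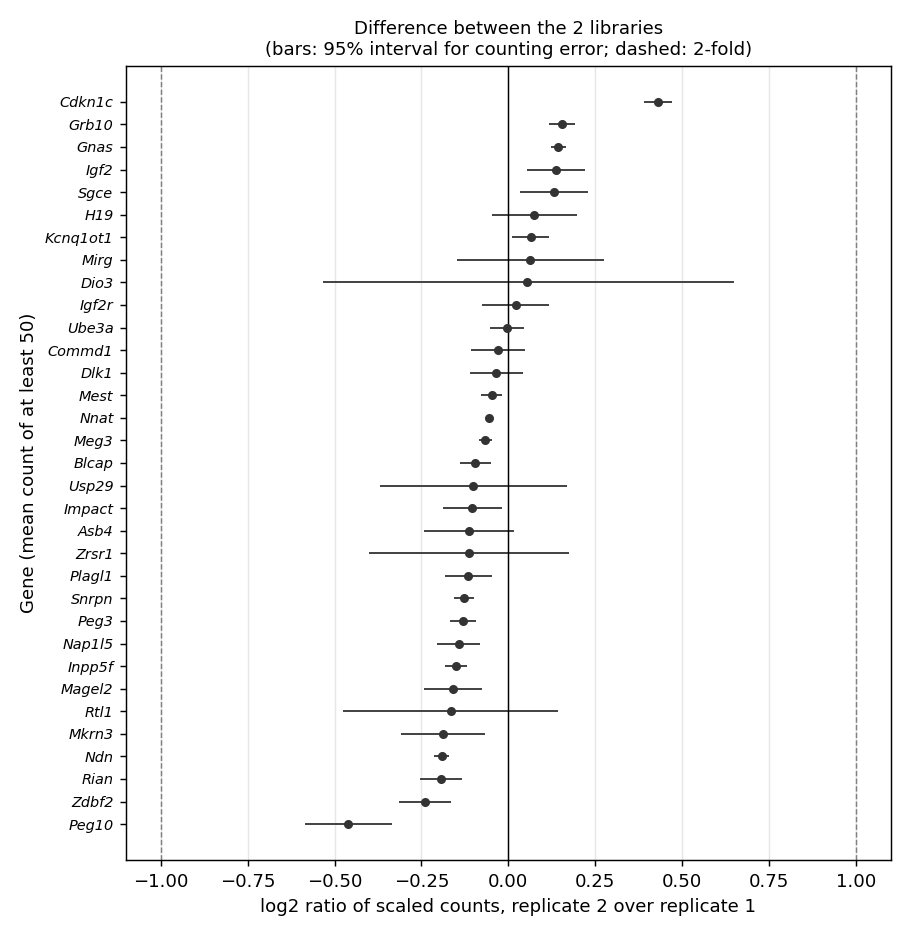
Log2 ratio of scaled counts, replicate 2 over replicate 1, for the 33 imprinted genes that reached a mean count of 50, with bars for the 95% interval of counting error and dashed lines at 2-fold. All 33 points lie between the dashed lines, with Cdkn1c the highest and Peg10 the lowest.

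Of 44 further known imprinted genes, 40 matched the tables and 28 of these (70%) were detected. Zim2, Zim3, Zfp264 and Peg13 had no match. The 5 highest were Snurf at 372 TPM in replicate 1 and 320.2 in replicate 2, Nap1l4 at 281 and 258, Cd81 at 203 and 200.4, H13 at 139.9 and 141, and Snhg14 at 124 and 110. The place of Snurf rests on 871.52 and 1001.72 expected reads over a length of 216 nt, and it shares 216 exon bases with Snrpn. Among the 31 with enough reads, 2 were past 2-fold between the libraries, beside 0.738% of all genes with such counts. Th, the tyrosine hydroxylase of dopamine synthesis, had 18.3 and 46.8 TPM, and Ddc, the decarboxylase that follows it, had 14.7 and 33.6. Both mark the dopamine neurons of the midbrain, and an imprint of Ddc is known from heart.

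Of 14 listed factors that set or keep imprints, 11 were detected. Ctcfl and Dppa3 were under the limit, and Zfp42 was at 0 in both libraries. Zfp57 had 216 TPM in replicate 1 and 214 in replicate 2, and Trim28 had 199.6 and 216. Ctcf, which binds the control region between H19 and Igf2, had 109 and 104, Ehmt2, a histone methyltransferase, had 86.8 and 90.1, and Arid4b, a chromatin protein, had 77.9 and 77.1. None of the 11 with enough reads was past 2-fold between the libraries, and at the share of 0.738% over all genes this says nothing particular about them.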

How the data were processed

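Gene and transcript tables of 2 midbrain libraries were used as the authors deposited them, on assembly mm10 with GENCODE M4, per their accompanying text. The deposited expected counts are estimates and can be fractional. Deposited TPM is scaled to length and library total, spike-ins included (5.36% and 9.39% of the TPM in replicates 1 and 2). Deposited FPKM and the deposited percent of a gene's TPM per transcript are named per the file headers. The column names are those of RSEM, and the sources used here name no aligner, version or strand setting.

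Of 69691 entries, 43346 were genes. The 97 spike-ins and 26248 tRNA and other entries were left out of scaling. Names and positions came from GENCODE M21 (42462 identifiers matched). Expected counts were rounded and scaled with edgeR 4.0.16 (TMM) in R 4.3.3, and exact 95% intervals were computed in Python 3.11.15. The intervals cover counting error only, since PCR copies cannot be told from separate molecules. Transcript starts within 300 nt formed a group. Alternatives included size factors of DESeq2 1.42.0, unscaled totals, TPM ratios, changed minimums and pseudocounts, posterior mean TPM and each library alone. Scripts were tested on simulated data.

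The members and all gene lists were chosen with earlier results of these data known. Every member is named. Of other imprinted genes and maintenance factors the 5 highest, those past 2-fold and, where 5 or fewer, those undetected are named, and of the marker lists the 2 highest where values are given. Transcripts of Gnas, Nnat and Grb10 with at least 5% of the TPM are named, and others were chosen after their values were seen.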

Additional observations from a re-analysis of the deposited data

How the results depend on the processing

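The count of detected imprinted genes was 34 under the deposited TPM, 35 at a TPM minimum of 0.5, 28 at a minimum of 5 and 32 with FPKM, and it was 34 with each library alone. No member passed 2-fold under any scaling or count minimum tried, and no direction of a pair of genes reversed. With a pseudocount of 1 in place of 0.1, the log2 ratio was 3.35 for Meg3 over Dlk1, 5.49 for Ndn over Magel2, 5.99 for Cdkn1c over Kcnq1ot1, 3.76 for Peg3 over Usp29, 5.52 for Peg3 over Zim1 and 6.05 for Commd1 over Zrsr1. A larger pseudocount shrinks the ratios of low genes by construction. Peg3 over Usp29 was 4.06 with a pseudocount of 0.01 and 4.01 with FPKM, and Meg3 over Dlk1 was 3.32 with the posterior mean TPM. As means in place of medians, the levels were 138 TPM for maternal, 451 for paternal and 257 for varying genes. Scaled without spike-ins, the medians were 15.7, 41.6 and 217 TPM. The leading Grb10 transcript had 85.8% by posterior means. No paired analysis was possible because there is 1 group. Levels from short or spliced annotated transcripts are limited by the annotation, and genes under 50 reads by depth. Levels of genes that overlap on opposite strands are also limited by reads divided across strands, as at Kcnq1ot1 and Kcnq1. The strand setting itself is unstated.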

Other observations

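The tables also list small RNAs that are processed from the imprinted host genes. The Dlk1-Dio3 region had 82 such entries of 68 to 124 nt, of which 72 had an effective length of 0 in the deposited tables, and together they held 1 expected read in replicate 1 and 1.23 in replicate 2. The Snrpn-Ube3a region had 230 entries of 60 to 98 nt, all with an effective length of 0 and no reads. The libraries were made from RNA longer than 200 nt, and entries with an effective length of 0 are given no value, so these zeros are not a measurement of the small RNAs. Their hosts Meg3, Rian and Mirg were detected.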
